A study of Homo sapiens with 16 samples.

Results

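The 10 genes ATF4, ATF3, ATF5, CEBPB, XBP1, TRIB3, DDIT4, SESN2, STC2 and GDF15 encode regulators and effectors of the integrated stress response. They were taken by name, as a fixed list, and not by any peak value. The list was chosen with earlier results of these data known, so its counts beside those of all genes are descriptions only. All 10 were found among the 20037 protein-coding genes of a RefSeq table of the human assembly (hg38), and each gene is described over its body and 2.5 kb beyond either end, its window.

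The integrated stress response is the pathway by which cells short of amino acids, glucose or folding capacity phosphorylate the translation factor eIF2, which lowers general protein synthesis. Translation of ATF4 rises under the same condition, and ATF4 binds DNA with C/EBP and other bZIP partners to switch on genes for amino acid supply, redox balance and, in prolonged stress, cell death. INTS13 is a subunit of Integrator, a complex that cleaves nascent RNA and ends transcription by paused RNA polymerase II, and HDGF is a chromatin protein with a PWWP domain.

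Chromatin immunoprecipitation sequencing (ChIP-seq) had been carried out in HEK293T, a human embryonic kidney line labelled wild type. HDGF had been precipitated after a control depletion and after 24 h of growth in medium lacking glucose. INTS13 had been precipitated from the same 2 conditions and from cells depleted of HDGF for 72 h with siPOOLs, which are pools of small interfering RNAs. The design text asks whether starvation, or loss or movement of a transcription factor, goes with movement of INTS13 on the genome. In control and HDGF-depleted cells the INTS13 antibody was from Bethyl Laboratories, and in starved cells it was from Proteintech, so antibody and starvation cannot be told apart for INTS13. A single Proteintech antibody was used for HDGF in control and starved cells. The labels name no depletion for the starved cells, so starvation and the absence of a control depletion cannot be told apart either. The extent of HDGF depletion was not analysed here, nor were the 6 input samples.

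For each of the 5 ChIP groups the authors deposited a single list of peaks for 2 labelled replicates, so the values have no replicate error and no difference between conditions was tested. A peak has a summit, the base with the most reads, and a fold, the authors' ratio of the summit to the background. The folds, apart from the highest ones, were reproduced with 1 background value for the whole list and 1 added to both, after a scaling in the starvation lists. Such folds are not taken over the coverage around the peak, and the part of regional coverage in them was not tested. With 1 added, the folds are lower than the plain ratio of the reads given here. On chromosomes 1 to 22, X and Y, which were the ones counted, the lists held between 15639 peaks (INTS13, starvation) and 106674 peaks (HDGF, control). The background ranged from 4.20 reads per base for INTS13 after HDGF depletion to 15.2 reads for INTS13 in starvation, with 6.40 for INTS13 control, 6.69 for HDGF control and 9.84 for HDGF starvation. The weakest peak of a list had 12 reads at its summit for INTS13 after depletion, 16 for HDGF control, 17 for INTS13 control, 24 for HDGF starvation and 40 for INTS13 starvation. A missing peak therefore means only that none was called, not an absence of the protein, and reads at places without a peak were not examined. Folds are compared only within a list.

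The sequences printed beside the start-site results are the 250 bases before the first listed start of 5 of the genes, from RefSeq (GRCh38.p14). They are shown because INTS13 peaks lay over these starts, in starved cells at SESN2, XBP1, DDIT4 and STC2 and in control cells at ATF4. Each is printed 5′ to 3′ along the gene, in lower case, with matches to 4 motifs in capitals: the GC box GGGCGG, the cAMP response core TGACG, the TATA box TATAAA, and the endoplasmic reticulum stress element, which is CCAAT, 9 bases of any kind and CCACG. Matches were sought on either strand, so that TGACG also appears as CGTCA and GGGCGG as CCGCCC. The windows are chr1:28259268-28259517 on the + strand for SESN2, chr22:28800570-28800819 on the − strand for XBP1, chr10:72273674-72273923 on the + strand for DDIT4, chr5:173328415-173328664 on the − strand for STC2 and chr22:39520309-39520558 on the + strand for ATF4.
SESN2: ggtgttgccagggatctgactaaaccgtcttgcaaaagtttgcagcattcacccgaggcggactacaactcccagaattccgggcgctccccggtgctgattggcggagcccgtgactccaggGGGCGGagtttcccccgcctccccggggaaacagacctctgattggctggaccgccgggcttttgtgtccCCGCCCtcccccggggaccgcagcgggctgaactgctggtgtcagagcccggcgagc
XBP1: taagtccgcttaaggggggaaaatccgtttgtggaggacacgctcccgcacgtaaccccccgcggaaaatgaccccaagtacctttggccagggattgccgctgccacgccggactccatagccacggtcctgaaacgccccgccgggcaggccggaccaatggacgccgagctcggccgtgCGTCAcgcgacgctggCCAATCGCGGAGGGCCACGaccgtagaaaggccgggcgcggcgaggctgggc
DDIT4: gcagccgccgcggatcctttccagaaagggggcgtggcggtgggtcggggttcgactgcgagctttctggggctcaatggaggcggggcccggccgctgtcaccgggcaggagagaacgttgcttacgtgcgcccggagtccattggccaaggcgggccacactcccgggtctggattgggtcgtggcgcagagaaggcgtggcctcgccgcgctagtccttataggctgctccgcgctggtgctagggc
STC2: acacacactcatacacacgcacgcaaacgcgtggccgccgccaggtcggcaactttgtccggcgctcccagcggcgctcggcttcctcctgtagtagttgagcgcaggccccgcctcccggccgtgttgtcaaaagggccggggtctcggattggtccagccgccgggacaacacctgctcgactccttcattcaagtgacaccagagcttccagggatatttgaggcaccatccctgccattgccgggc
ATF4: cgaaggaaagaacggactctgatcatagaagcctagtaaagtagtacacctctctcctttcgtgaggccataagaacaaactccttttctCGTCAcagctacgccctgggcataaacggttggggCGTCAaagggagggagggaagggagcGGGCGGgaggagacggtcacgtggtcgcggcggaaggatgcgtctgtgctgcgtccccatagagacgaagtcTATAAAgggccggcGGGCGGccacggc

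The INTS13 starvation peaks covered 163 of the 250 bases at SESN2, 235 at XBP1, 58 at DDIT4 and 250 at STC2, and 0 at ATF4. INTS13 control peaks covered 250 of the bases at ATF4 and 0 at each of the other 4. After HDGF depletion INTS13 peaks covered 250 bases at ATF4, 155 at STC2, 55 at SESN2, and 0 at XBP1 and DDIT4. HDGF peaks reached into the window at SESN2 alone among the 5, over 28 bases in control cells and 13 in starved cells.

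The XBP1 window holds the endoplasmic reticulum stress element at bases −52 to −34, counted from its start, a match that 19 of 15843 promoters have (0.12%), and it lies within the 235 bases under the INTS13 starvation peak. The GC box, which 56% of promoters hold, was found before the first start of ATF4, ATF3, SESN2, TRIB3, CEBPB and GDF15. TGACG, which 25.6% of promoters hold, was found before the first start of ATF4 and XBP1, before the third start of ATF5 (bases −193 to −189) and before the second start of CEBPB (−57 to −53). The full cAMP response element TGACGTCA, at 2.32% of promoters, was found at 0 of the 10. TGATGNAA, the core of the C/EBP-ATF response element that ATF4 and its partners bind, is at 2.21% of promoters and was found at ATF3 alone, at bases −191 to −184 from its first start. TATAAA is at 9.23% of promoters and was found before the first start of ATF4 and GDF15 and before the second start of ATF3 (−230 to −225) and CEBPB (−29 to −24). The second start of CEBPB is the one that an INTS13 starvation peak covered. The shares of promoters are for the first listed start of each gene. None of these motifs was found in the windows of DDIT4 and STC2. A match is a description of the letters and not a binding site.

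HDGF peaks lay at 8 of the 10 genes in control cells, all but TRIB3 and GDF15, where 49.7% of all protein-coding genes had a peak by the same rule. In starved cells HDGF peaks lay at 10 of 10 genes, against 41.1% of all genes. INTS13 peaks lay at 5 genes in control cells (ATF4, ATF3, DDIT4, SESN2 and XBP1, against 13.2% of all genes), at 10 after HDGF depletion (against 51.2%) and at 6 in starvation (ATF3, DDIT4, SESN2, STC2, XBP1 and CEBPB, against 11.6%). The genes are 2108 to 55371 bp long, and among the 12969 protein-coding genes of such lengths the shares with a peak were 48.5%, 43.7%, 11.7%, 47.9% and 11.3% in the same order. ATF3, DDIT4, SESN2 and XBP1 had a peak in each of the 5 lists, as 5.9% of all genes did.

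**Figure D1:**
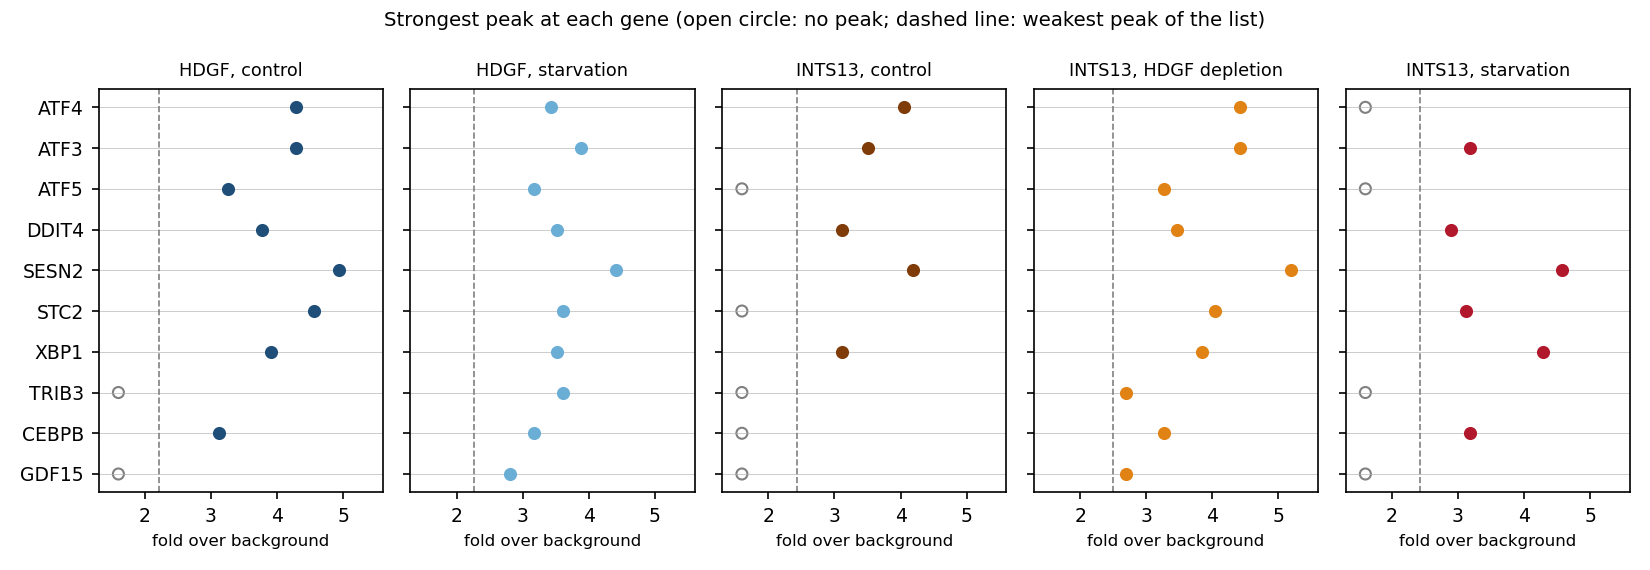
The fold over background of the strongest peak of each gene (horizontal axis, linear, no unit) is shown in 1 panel for each list, with a dashed line at the list's weakest peak. Open circles, set left of the line at no value, stand for genes with no peak. SESN2 has the highest fold of the 10 genes in each of the 5 panels, from 4.19 to 5.20, and TRIB3 and GDF15 have no peak in 3 panels.

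ATF4, the transcription factor at the centre of the response, lies on chromosome 22 from 39520559 to 39522686. HDGF had 5 peaks in its window in control cells, the strongest with a fold of 4.29 and 32 reads (exact Poisson 95% interval 21.9 to 45.2, for counting error only), and 5 in starved cells, with at most 3.43-fold and 37 reads (26.1 to 51.0). The INTS13 control list had 4 peaks, and the strongest, at 39520278 to 39520803, covered both listed starts, with its summit at −157 bp from the first (negative distances are upstream), a fold of 4.05 and 29 reads (19.4 to 41.6). That peak stood at the 93.7 percentile of its list by −log10 p. After HDGF depletion a peak at 39520034 to 39521007 again covered the starts, with its summit at −79 bp and 18 reads, and the strongest of the 5 peaks lay in the gene body (4.43-fold, 22 reads). In the INTS13 starvation list ATF4 had no peak, and the nearest peaks lay 8245 bp upstream and 8629 bp downstream of its first start.

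ATF3, a bZIP factor induced by ATF4, is the longest of the genes, on chromosome 1 from 212565407 to 212620777, and has listed starts at 212565407 and 212615018. HDGF had 32 peaks in its window in control cells and 21 in starved cells, with strongest folds of 4.29 (32 reads) and 3.88 (42 reads). INTS13 had 8 peaks in control cells, at most 3.51-fold with 25 reads, and 28 after HDGF depletion, at most 4.43-fold with 22 reads. One of the 28 covered the first start, with its summit 203 bp inside the gene and 17 reads. The single INTS13 starvation peak lay in the gene body, 43398 bp from the first start, with a fold of 3.18 and 53 reads (39.7 to 69.3). INTS13 was thus within ATF3 in all 3 INTS13 lists, but its peaks there did not coincide between control and starvation.

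ATF5, a bZIP factor translated under stress in the manner of ATF4, lies on chromosome 19 from 49928906 to 49933935 and overlaps IL4I1. HDGF had 2 peaks in its window in control cells, both upstream of ATF5 with their summits inside IL4I1, with up to 24 reads (3.25-fold). In starved cells it had 2, of which the stronger (34 reads, 3.16-fold) again had its summit in IL4I1, and the other, 1806 bp into ATF5, had 28 reads. INTS13 had no peak at ATF5 in control or starved cells and 2 after HDGF depletion, each of 16 reads and 3.27-fold, 1 of them with its summit 192 bp past the second listed start, in the stretch that ATF5 shares with IL4I1. The HDGF control peaks counted for ATF5 can therefore not be told apart from peaks of its neighbour.

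CEBPB, a C/EBP factor that dimerises with ATF4, lies on chromosome 20 from 50190583 to 50192690 and has listed starts at 50190583 and 50190830. HDGF had 3 peaks in control cells, of 20 to 23 reads, 1 upstream and the other 2 past the end of the gene, and 1 past its end in starved cells (3.16-fold, 34 reads). INTS13 had no peak in control cells, and after HDGF depletion 1 past the end of the gene (3.27-fold, 16 reads). In starved cells an INTS13 peak at 50190672 to 50190904 covered the second start, with its summit at −81 bp from it and 166 bp past the first, a fold of 3.18 and 53 reads (39.7 to 69.3). HDGF had no peak on the body of CEBPB in either condition.

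XBP1, the transcription factor of the IRE1 arm of the unfolded protein response, lies on chromosome 22 from 28794560 to 28800569 on the − strand. HDGF had 6 peaks in control cells, the strongest with its summit at −856 bp from the first start, a fold of 3.90 and 29 reads, and 5 in starved cells, of which the strongest, 289 bp into the gene, had a fold of 3.52 and 38 reads. The single INTS13 control peak lay 3142 bp into the gene, with a fold of 3.11 and 22 reads (13.8 to 33.3). After HDGF depletion there were 8 INTS13 peaks of 13 to 19 reads, and 1 of them, of 18 reads, covered the second listed start, at 28800077. In starved cells the single INTS13 peak, 28800083 to 28800804, lay over the first start with its summit 4 bp inside the gene, a fold of 4.28, a −log10 q of 8.48 and 72 reads (56.3 to 90.7). Among the 10 genes it was second to SESN2 in that list, at the 96.2 percentile.

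TRIB3, a pseudokinase that binds ATF4 and restrains it, lies on chromosome 20 from 380760 to 397559. HDGF had no peak there in control cells and 3 in starved cells, of which the strongest lay in the gene body with a fold of 3.61 and 39 reads (27.7 to 53.3). INTS13 had no peak in control or starved cells. After HDGF depletion it had 1 in the gene body, with a fold of 2.69 and 13 reads (6.92 to 22.2), 1 read above the weakest peak of that list and at its 4.93 percentile. TRIB3 and GDF15 were the weakest of the 10 genes in the HDGF-depletion list.

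SESN2, a stress-induced inhibitor of mTORC1 and sensor of leucine, lies on chromosome 1 from 28259518 to 28282491. In control cells 10 HDGF peaks filled 88.6% of its window, among them 1 of 15057 bp, and the strongest had a fold of 4.94 and 37 reads (26.1 to 51.0). In starved cells 17 HDGF peaks filled 66.1%, with a strongest fold of 4.42 and 48 reads (35.4 to 63.6). HDGF peaks thus lay along most of the gene in the control list, with a gap of 777 bp after the start. In the starvation list they were more broken up, and the gap after the start was 110 bp. The weakest peak had 16 reads in the control list and 24 in the starvation list, and the part of this in the break-up was not tested.

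INTS13 had 16 peaks at SESN2 in control cells, 20 after HDGF depletion and 8 in starved cells, and in each list the strongest was the one at the start. In control cells this peak began 1 bp after the start, at 28259519 to 28259776, with its summit 71 bp inside the gene, a fold of 4.19 and 30 reads (20.2 to 42.8). After depletion it ran from 28259463 to 28260564, with the summit 119 bp inside, a fold of 5.20 and 26 reads (17.0 to 38.1). In starvation it ran from 28259355 to 28259934, with the summit 33 bp inside, a fold of 4.57, a −log10 q of 10.4 and 77 reads (60.8 to 96.2). SESN2 was the strongest of the 10 genes in every list, at percentiles from 95.2 to 99.6.

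DDIT4, also named REDD1, which inhibits mTORC1 through the TSC complex, lies on chromosome 10 from 72273924 to 72276036. HDGF had 5 peaks in control cells (at most 3.77-fold, 28 reads) and 2 in starved cells (at most 3.52-fold, 38 reads), each time with the strongest in the gene body. The single INTS13 control peak lay in the gene body, 1659 bp from the start, with a fold of 3.11 and 22 reads. After HDGF depletion 3 INTS13 peaks of 14 to 17 reads had summits at −467, 294 and 1249 bp from the start. In starved cells the single peak, at 72273866 to 72274099, covered the start, with its summit 34 bp inside the gene, a fold of 2.89 and 48 reads (35.4 to 63.6). Of the 6 genes in the starvation list DDIT4 had the lowest fold, at the 44.2 percentile.

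STC2, a secreted glycoprotein that limits calcium entry under stress, lies on chromosome 5 from 173314723 to 173328414 on the − strand. HDGF had 8 peaks in control cells, 5 of them in the gene body with 30 to 34 reads and up to 4.55-fold, and 10 in starved cells with 28 to 39 reads. INTS13 had no peak in control cells. After HDGF depletion it had 6, of which the strongest covered the start with its summit 18 bp inside the gene (4.04-fold, 20 reads, 12.2 to 30.9). In starved cells it had 1, at 173328400 to 173328726, which covered the start with its summit at −157 bp from it, a fold of 3.13 and 52 reads (38.8 to 68.2). STC2 thus had an INTS13 peak over its start in depleted and in starved cells and none in control cells, where the nearest lay 30410 bp upstream.

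GDF15, a secreted stress cytokine of the TGF-beta family, lies on chromosome 19 from 18386158 to 18389176. HDGF had no peak in control cells and 1 in starved cells, 513 bp into the gene, with a fold of 2.81 and 30 reads (20.2 to 42.8). INTS13 had no peak in control or starved cells, and its peak after HDGF depletion (2.69-fold, 13 reads) had its summit inside the neighbouring LRRC25, past the end of GDF15. GDF15 was the gene with the fewest peaks of the 10.

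**Figure D2:**
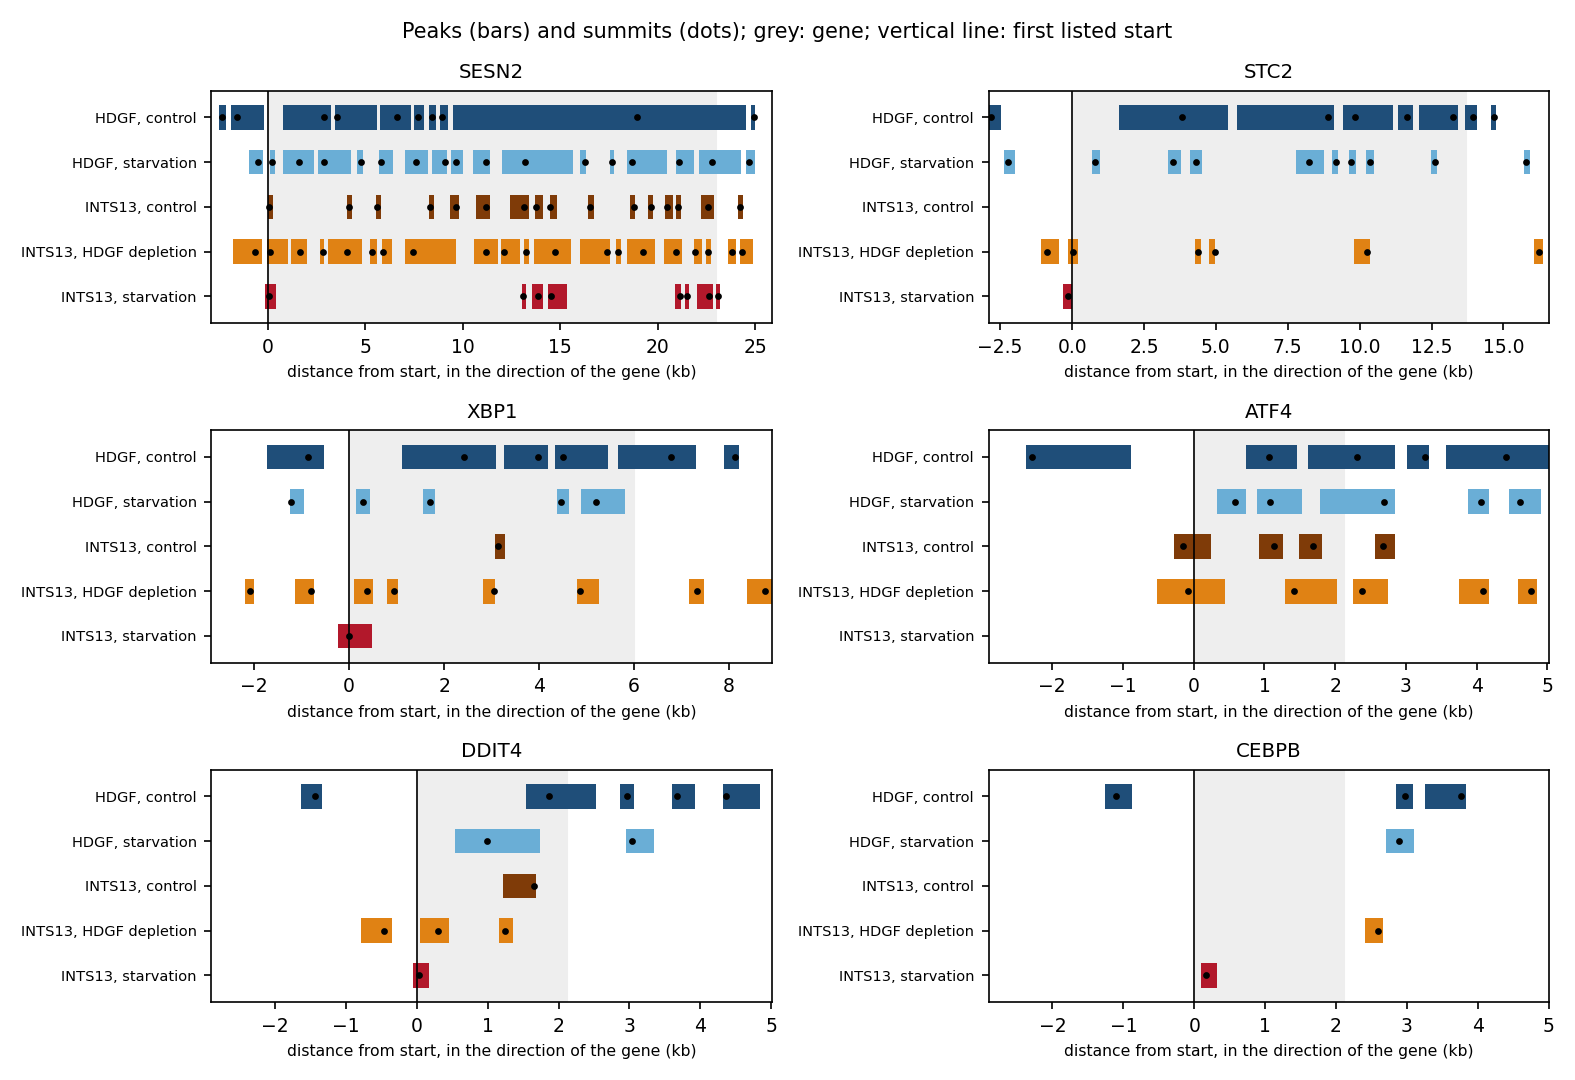
Peaks (bars) and summits (dots) of the 5 lists are drawn to scale at SESN2, STC2, XBP1, ATF4, DDIT4 and CEBPB, as distance from the first listed start in kb in the direction of the gene, with the gene shaded grey. At SESN2, STC2, XBP1 and DDIT4 the lowest track, INTS13 in starvation, has a peak over the start; at CEBPB it begins just inside; at ATF4 the track is empty, while INTS13 peaks of control and HDGF-depleted cells cover the start.

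The position of peaks relative to transcription starts differed between the lists. Of 15843 genes with a listed start, 1.62% had a start under an HDGF control peak, 4.78% under an HDGF starvation peak, 1.74% under an INTS13 control peak, 4.28% under an INTS13 peak after HDGF depletion and 3.88% under an INTS13 starvation peak. Among the 10 genes HDGF peaks covered a start at 0 in either condition. For INTS13 they were 1 in control cells (ATF4), 5 after HDGF depletion (ATF4, ATF3, SESN2, STC2 and XBP1) and 5 in starvation (DDIT4, SESN2, STC2, XBP1 and CEBPB). Of the 1922 genes with both a listed start and an INTS13 starvation peak, 31.9% had a start covered, beside 5 of the 6 such genes here. ATF3 was the sixth, with its peak in the gene body. The DDIT4 peak had a −log10 q of 2.71 and was absent at a minimum of 3.

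Counted by summits within 250 bp of a start, HDGF lay at 0 of the genes in control cells (1.87% of all) and at SESN2 and XBP1 in starved cells (5.19%). INTS13 lay at ATF4 and SESN2 in control cells (2.33%), at ATF4, ATF3, ATF5, SESN2, STC2 and XBP1 after HDGF depletion (5.55%) and at DDIT4, SESN2, STC2, XBP1 and CEBPB in starvation (4.45%). Of the summits within 2500 bp of a start, 0 of 20 lay in the inner 250 bp for HDGF control, 2 of 24 for HDGF starvation, 2 of 5 for INTS13 control, 6 of 25 after HDGF depletion and 5 of 5 for INTS13 starvation. Over all listed starts of protein-coding genes the shares were 3.45%, 12.3%, 26.8%, 13.1% and 50.5% in the same order, lowest for HDGF control and highest for INTS13 starvation, as at the 10 genes.

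**Figure D3:**
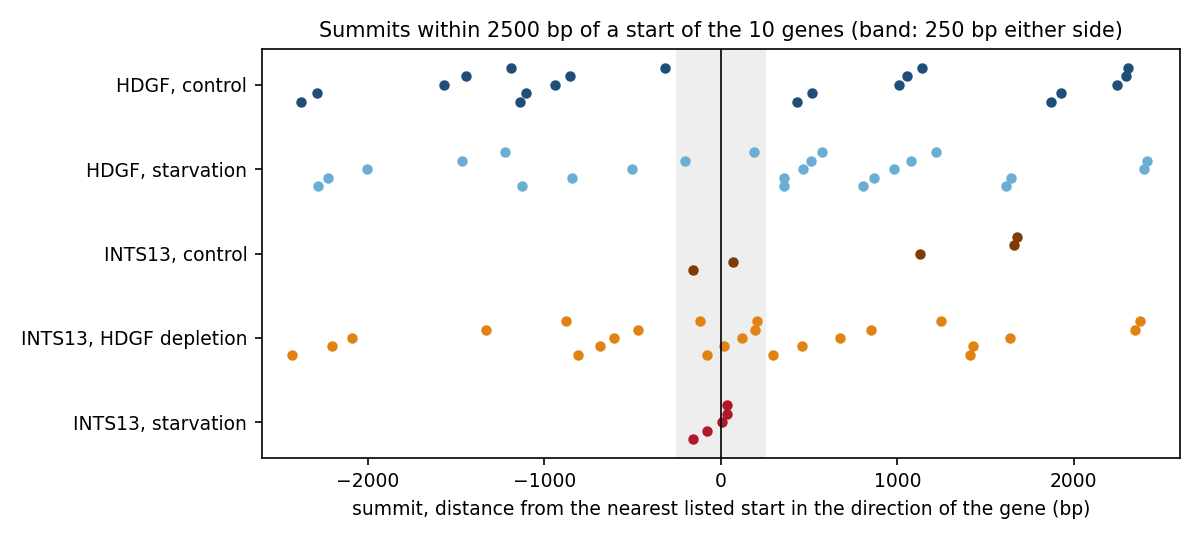
Each dot is a summit within 2500 bp of a start of the 10 genes, placed by its distance from the nearest listed start in bp (negative: upstream), in 1 row for each list; the vertical offset of dots within a row only separates them. The grey band is 250 bp to either side, which holds 0 of 20 HDGF control summits and 5 of 5 INTS13 starvation summits.

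HDGF peaks flanked some of the starts without covering them. In control cells ATF4, ATF3, DDIT4, SESN2, STC2 and XBP1 had HDGF peaks within 2.5 kb on both sides of the first listed start and none over it, as 11.2% of all genes with a listed start did. In starved cells ATF3, ATF5, SESN2, STC2 and XBP1 did, against 5.76%. The gap at ATF4 ran in control cells from 891 bp before its first start, at a peak whose summit lies nearer MIEF1, to 739 bp after it. At ATF3 it ran from 137 bp before to 361 bp after, and at XBP1 from 528 bp before to 1123 bp after. Such a gap was common among genes with HDGF control peaks on both sides of the start, at 92.6% of 1913 genes, so the 6 genes here shared it with most of the genes so flanked. In the starvation list it was found at 60.8% of 1499 such genes.

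The share of each window filled by HDGF peaks was lower in starved cells at 7 of the 8 genes that had a peak in both lists, and at 53.6% of the 6314 protein-coding genes that had one in both. The HDGF peaks covered 53.4 Mb in all in the control list and 34.6 Mb in the starvation list. The share was 67.4% and 36.3% at ATF4, 61.0% and 19.7% at STC2, and 65.2% and 18.4% at XBP1 in control and starved cells, and only ATF5 went the other way, from 4.56% to 7.18%. The median over all genes with a peak was 3.48% in the control list and 4.14% in the starvation list, which is the shorter of the pair and has the higher background. For INTS13 the share at SESN2 was 22.6% in control cells, 68.7% after HDGF depletion and 14.2% in starved cells, and at ATF4 20.7%, 37.4% and 0%. The median over all genes with an INTS13 peak was 1.33%, 1.95% and 1.55% in the same order. The medians for both proteins are over genes of all lengths, and a peak of a given width fills a larger share of a short window.

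**Figure D4:**
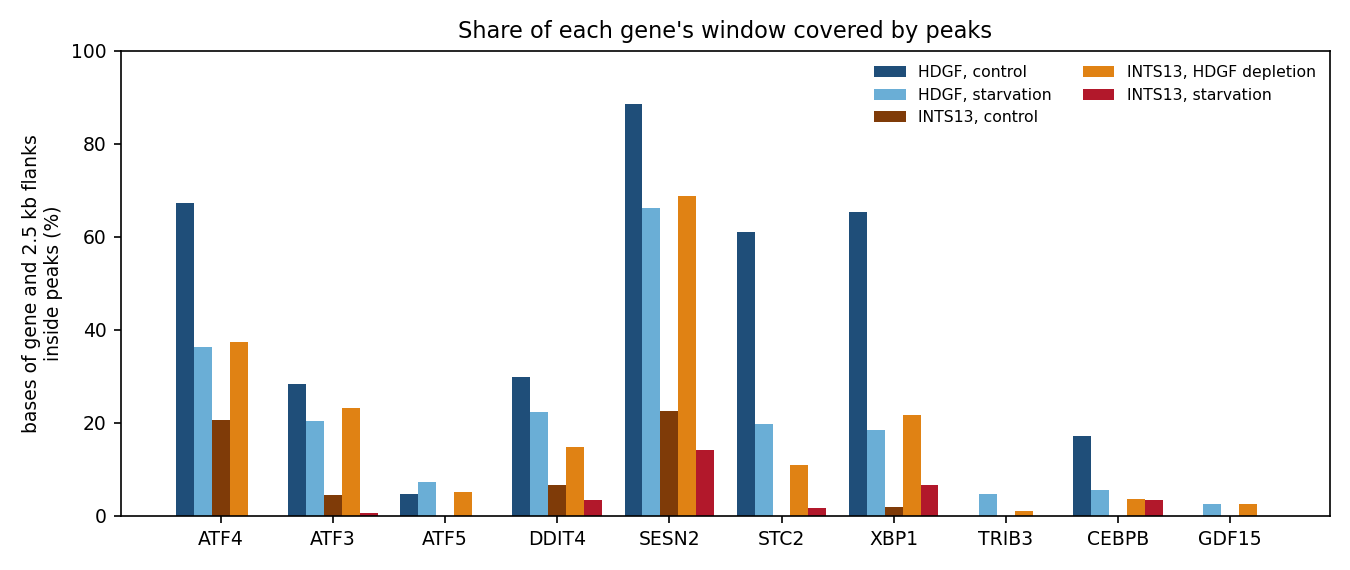
Bars give the percentage of bases of each gene and its 2.5 kb flanks that lie inside peaks, for the 5 lists, with the axis starting at 0. SESN2 is the most filled in all 5 lists, with 88.6% for HDGF in control cells, and ATF5, TRIB3 and GDF15 stay under 8% in each.

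The first question was where HDGF lies once glucose is withdrawn. HDGF peaks were kept, that is present in both lists, at 8 genes (31.5% of all genes), lost, that is present in control cells alone, at 0 (18.2%), and gained, present in starved cells alone, at TRIB3 and GDF15 (9.57%). At each of the 8 kept genes at least 1 control peak shared bases with a starvation peak, as at 17% of all genes and at 54.1% of the 6314 kept genes. Of the control peaks 39 of 71 took part, beside 21% of the whole list, and of the starvation peaks 50 of 67, beside 34.9%; 32 of the 71 and 21 of the 67 lay at ATF3. The gained peak at TRIB3 was also present with a −log10 q of at least 5, whereas that at GDF15 was absent with a −log10 q of at least 3. At ATF4 no HDGF starvation peak had a −log10 q of at least 5.

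The second question was whether INTS13 lies elsewhere once HDGF is depleted. INTS13 peaks were kept at all 5 genes that had one, as at 94.7% of the 2646 genes with an INTS13 control peak (12.5% of all genes), lost at 0 (0.704%) and gained at ATF5, STC2, TRIB3, CEBPB and GDF15 (38.7%). Overlapping peaks were found at ATF4, ATF3, DDIT4 and SESN2, as at 6.67% of all genes and 53.4% of the 2505 kept genes, and at XBP1 the peaks did not overlap. Taking part were 24 of 30 control peaks, 16 of the 30 at SESN2, beside 50.3% of the whole list, and 22 of 75 depletion peaks, beside 14.4%. The list after depletion was 105994 peaks long against 31233 in control cells. At a −log10 q of 3 or more the only gained gene was STC2. The same held with every list cut to its strongest 15639 peaks, where 3 genes were kept (ATF4, ATF3 and SESN2). At 5 or more the only gained gene was ATF3, with ATF4 and SESN2 kept and no peak left at STC2.

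The third question was whether INTS13 lies elsewhere after starvation, with a change of antibody. INTS13 peaks were kept at ATF3, DDIT4, SESN2 and XBP1 (6.92% of all genes), lost at ATF4 (6.29%) and gained at STC2 and CEBPB (4.73%), and ATF5, TRIB3 and GDF15 had none in either list. The kept genes were thus 4 of the 5 with a control peak, beside 52.4% of the 2646 protein-coding genes with one. Peaks overlapped at SESN2 alone, as at 3.51% of all genes and 50.7% of the 1386 kept genes: 6 of its 16 control peaks and 6 of its 8 starvation peaks shared bases. At DDIT4 and XBP1 the control peak lay in the gene body and the starvation peak at the start, and at ATF3 the 8 control peaks and the starvation peak lay apart. With every list cut to 15639 peaks the kept genes were ATF3 and SESN2, and DDIT4 and XBP1 joined STC2 and CEBPB among the gained ones. At a −log10 q of 3 or more DDIT4 was lost instead, since its starvation peak had 2.71. At 5 or more SESN2 was kept, XBP1 gained and ATF4 lost, and no other of the genes had a peak in either list. The classes of DDIT4, XBP1, ATF3, STC2 and CEBPB thus depended on the setting. SESN2 was kept and ATF4 lost under each setting of peak strength and list length.

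INTS13 and HDGF were then compared within a condition. In control cells the genes with an INTS13 peak, 5 in all, also had an HDGF peak (11.5% of all genes had both), as did 87.2% of the 2646 genes with an INTS13 peak, and ATF5, STC2 and CEBPB had HDGF only (38.2%). Peaks of the 2 proteins overlapped at those 5 genes, as at 5.39% of all genes and 46.8% of the 2306 genes with both, with 23 of 30 INTS13 peaks (45% of the whole list) and 12 of 71 HDGF peaks (10.8%) taking part. In starved cells 6 genes had both (10.1%), that is 6 of 6 with an INTS13 peak, beside 87% of 2334 genes, and ATF4, ATF5, TRIB3 and GDF15 had HDGF only (30.9%). Overlap was then found at SESN2 and XBP1, as at 6.91% of all genes and 68.2% of the 2031 genes with both, with 9 of 13 INTS13 peaks (72% of the whole list) and 5 of 67 HDGF peaks (15%). At DDIT4, STC2, CEBPB and ATF3 the starved cells had peaks of both proteins that did not touch.

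In every list the genes of chromosomes 1 and 22 had a peak more often than those of the other chromosomes. In the INTS13 control list, 37.2% of the genes of chromosomes 1 and 22 had a peak against 9.76% of the genes elsewhere, and in the starvation list 29.2% against 9.12%. The shares were 74.1% against 47.9% for INTS13 after HDGF depletion, 69.2% against 46.9% for HDGF control and 67.8% against 37.3% for HDGF starvation. Chromosome 10, which holds DDIT4 and is counted among the others, had 75.6%, 65.3% and 54.5% in the same order. Its INTS13 shares were 16.3% in control and 15.9% in starved cells. ATF3 and SESN2 lie on chromosome 1 and ATF4 and XBP1 on chromosome 22, and in control cells INTS13 had a peak at 4 of these 4 genes and at 1 of the other 6. In starvation it had a peak at 3 of the 4 and 3 of the other 6. The part of the chromosome in these counts was not tested.

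The other genes of the pathway were taken as 7 lists with 55 genes in all. HDGF had a peak at 41 of the 55 in control cells (74.5%, beside 49.7% of all genes) and at 21 in starved cells (38.2%, beside 41.1%). INTS13 had one at 3 in control cells (5.45%, beside 13.2%), 27 after HDGF depletion (49.1%, beside 51.2%) and 3 in starvation (5.45%, beside 11.6%). The 3 in control cells were OMA1, the mitochondrial protease that signals to the eIF2 kinase HRI, CREBRF, and ATF6, the membrane-bound factor of the unfolded protein response. In starvation they were OMA1, MBTPS1, the protease that releases ATF6, and CEBPA, a relative of CEBPB.

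By role, HDGF control peaks lay at 5 of 7 eIF2 kinases and their activators, 7 of 8 subunits of eIF2 and its exchange factor eIF2B, and 5 of 5 genes of the eIF2 phosphatase. They lay at 5 of 7 partner transcription factors, 4 of 9 family relatives of the 10 genes, 10 of 12 genes of the unfolded protein response and 5 of 7 ATF4 targets. In starved cells the counts were 3, 2, 3, 2, 2, 6 and 3 in that order. Of all protein-coding genes, 49.7% had an HDGF peak in control cells and 41.1% in starved cells. INTS13 had no peak in control or starved cells at the subunits of eIF2 and eIF2B, the phosphatase genes or the ATF4 targets. Of all genes 13.2% and 11.6% had one, so an empty count in lists of 5 to 8 genes shows little. After HDGF depletion it had peaks at 4, 4 and 2 genes of these lists in that order, beside 51.2% of all genes. SLC3A2, an ATF4 target, then had 5, up to 4.43-fold with 22 reads.

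Among these genes CEBPA had the strongest INTS13 starvation peak, with a fold of 5.32 and 90 reads, above that of SESN2. PPP1R15A, which encodes GADD34, the stress-induced subunit of the eIF2 phosphatase, had HDGF peaks in control (3.25-fold, 24 reads) and starved cells (3.52-fold, 38 reads) and INTS13 peaks after HDGF depletion only (3.27-fold, 16 reads). DDIT3, which encodes the ATF4 partner CHOP, had HDGF peaks of up to 22 reads in control cells and 35 reads in starved cells, and an INTS13 peak of 16 reads after HDGF depletion.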

How the data were processed

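The authors deposited 1 MACS2 peak list per ChIP group for reads of 150 bp, made per the submitters' processing notes with FastQC, Trimmomatic, Bowtie, Picard and MACS2 on hg38, and 0.05 stands in the peak names. Not given in the sources used here are versions, settings, the use of inputs and the way replicates were combined. The deposited score, fold, −log10 p, −log10 q and summit position of each peak are the authors' values. The fold is a ratio to background, reproduced with 1 background value per list and 1 added to both, and folds were compared only within a list. A −log10 q minimum, the same for each list, served as an alternative, although the lists differ in depth. Peaks on chromosomes 1 to 22, X and Y were counted, 15639 of 15646 in the shortest list and 106674 of 106697 in the longest. Reads at a summit were recovered from the deposited folds, which in every list gave whole numbers within 0.05 for all distinct folds below the highest ones, before the scaling that both starvation lists imply. Their exact Poisson intervals cover counting error only. They make no allowance for the choice of the highest base of a called peak, or of the strongest peak of a gene.

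A gene had a peak when at least 1 base lay in the gene or within 2.5 kb of either end, counted with Python 3.11.15, pandas 2.3.3 and scipy 1.17.1 and tested on simulated peaks. Genes and promoters came from RefSeq tables of GRCh38.p14, and 15843 of the 20037 genes had a listed start. Between a control and a treated list, a gene with peaks in both was kept, with a control peak alone lost, and with a treated peak alone gained. The 10 genes and the pathway lists were chosen with earlier results of these data known. All 10 genes are named, and from each pathway list at most 4 genes with the highest −log10 q. The alternatives were other windows, stricter peaks, lists of equal length and stricter overlap.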

Additional observations from a re-analysis of the deposited data

How the results depend on the processing

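Of 100 values recomputed under alternatives for 20 counts, 74 stayed within 1.5 times the count given above and 26 did not. Windows of 1 kb, 5 kb, the gene body alone or the summit alone moved 0. Between conditions only kept genes were scored, so changes among gained or lost genes are not in this tally. Genes gaining INTS13 after depletion, for instance, went from 5 to 1 at a −log10 q of 3 or more. The cause of the changes was not tested, beyond the fewer peaks that the stricter settings leave. At a −log10 q of 3 or more, the genes with an INTS13 peak after HDGF depletion were 6 (29.8% of all genes had one). At 5 or more, HDGF starvation peaks lay at 6 genes (8.86%) and INTS13 peaks at 2 in control (3.44%), 3 after depletion (6.68%) and 2 in starvation (3.35%). Kept genes were then 5 for HDGF, 2 for INTS13 after depletion and 1 for INTS13 in starvation, and genes with both proteins 2 in control and 2 in starvation. With each list cut to its strongest 15639 peaks, INTS13 lay at 3 genes in control (7.59%) and 4 after depletion (12.3%), kept genes were 3 after depletion and 2 in starvation, and 3 had both proteins in control. Overlapping peaks were then found at 5 genes for HDGF in control and starvation, 2 for INTS13 in control and depletion, and 2 for both proteins in control. With 50% of both peaks shared, both proteins overlapped at 2 genes in control and 0 in starvation, and with summits within 250 bp at 1 in starvation. The start windows of 100 and 500 bp were added after the data were seen. With 100 bp the genes with a summit near a start were 0 for HDGF starvation (2.12%) and 1 for INTS13 control (1.28%). After depletion they were 2 (2.75%). With 500 bp they were 1 for HDGF control (4.36%) and 4 for HDGF starvation (9.23%). These shares are of all genes with a listed start. For kept genes, genes with both proteins and overlaps under the stricter settings no share of all genes is given, so those counts are descriptions only.

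No paired analysis was possible because a single list per group was deposited, and no replicate was left out for the same reason. Depth limits the lists unequally: the weakest INTS13 peak had 12 reads over a background of 4.20 after HDGF depletion and 40 over 15.2 in starvation.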

Other observations

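SESN2 had a peak in all 5 lists and the highest summed rank of the 10 genes. Each protein-coding gene was described by the percentile of its strongest peak in each list, and the 3 genes with the smallest Euclidean distance to SESN2 over the 5 lists were TMEM184B on chromosome 22 (0.698), ITPKB on chromosome 1 (0.828) and CSNK1E on chromosome 22 (0.831). The HDGF percentiles of TMEM184B were 99.6 in control and 99.7 in starved cells, beside 99.6 and 99.1 at SESN2. Its INTS13 percentiles were 95.2 in control, 99.2 in HDGF-depleted and 97.2 in starved cells, beside 95.2, 99.2 and 97.4 at SESN2. The likeness describes 5 lists from 1 cell line, and the part that the chromosome has in it was not tested.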
